A study of Mus musculus with 2 samples.

Results

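The cytosolic ribosomal protein genes of the mouse eye cup were taken as all genes whose symbol is Rpl or Rps followed by a number, with an optional a or x, plus Rplp0, Rplp1, Rplp2 and Rpsa. The rule found 76 genes of the 31053 in the count matrices, 46 of them encoding large subunit proteins and 30 small subunit proteins. All 76 had UMIs in each named class of cells in both libraries, and all 76 passed the level filter of every comparison below. The cells came from e15.5 embryonic eye cups, with cornea, lens and optic nerve removed, dissociated with papain and run on a 10x 3′ single-cell assay. The control library was Myrf fl/fl, meaning that both copies of the transcription factor gene Myrf carry loxP sites without Cre. The mutant genotype was Rx>cre Myrf fl/fl. There, a Cre transgene under Rx, a homeobox gene of the early eye field, acts on the same floxed alleles. Each library pooled 3 eye cup samples, and there was 1 library per genotype. No test of genotype was therefore possible, and the intervals below are 95% exact binomial intervals that cover counting error only.

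The control library held 13017 barcodes and the mutant library 13880, with median depths of 9339 and 8702 UMIs per barcode, and 11576 and 12623 cells were kept. The libraries shared 69 barcode sequences. Myrf, the targeted gene, was at 76.1 UMIs per 1e+06 UMIs of the class (CPM) in control RPE-like cells (293 UMIs) and at 30.3 CPM in mutant ones (58 UMIs). The pools also differed in sex, since a Y-linked UMI was found in 0.04% of control retinal progenitor-like cells and in 55.9% of mutant ones. Genotype, pool and library cannot be told apart.

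Each eukaryotic ribosome holds 1 copy of nearly every one of these proteins, so their genes are usually read as a coordinated set. Their mRNAs begin with a C followed by an unbroken tract of pyrimidines, the 5′ terminal oligopyrimidine (TOP) motif, through which mTOR and Larp1 set their translation. Dividing progenitors make many ribosomes, while neurons leave the cell cycle and extend processes. In the embryonic retina, multipotent progenitors become neurogenic progenitors marked by Atoh7 and Neurog2, which give rise to ganglion, horizontal and amacrine cells and to photoreceptors, while the retinal pigment epithelium (RPE) is a separate pigmented layer.

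The start sites of 10 members that hold the tract near the annotated start are printed to show it. They were chosen among the members named below, others of which hold no such tract in this window, Rpsa, Rps19, Rpl5 and Rpl11 among them. RefSeq promoter windows (GRCm38.p6) were found for 56 of the 76 members. A C followed by 4 bases that are each C or T stood exactly at the annotated start in 13 of these 56 members (23.2%) and in 3.01% of all 27025 genes with a window. It began within 5 bases of the annotated start, those at the start included, in 27 members (48.2%) and in 21.2% of all genes. A run of at least 8 C or T bases lay within 50 bases of the start in 85.7% of members and 39.3% of all genes, read on the gene's strand. In the sequences below, the match to these letters that begins nearest the annotated start is in capitals, 10 bases precede it, and coordinates are GRCm38. The capitals begin 2 bases after the annotated start in Rpl12 and 4 after it in Rps2. They begin 1 base before it in Rpl7a and 3 before it in Rpl31, and at it in the others. Rpl35a also has annotated starts without such a tract. Except in Rps2, a C or T also stands directly before the capitals, so the whole pyrimidine run is longer than the part marked, and in Rpl7a it takes in all 10 preceding bases.
Rpl12, chr2:32961704-32961733, plus strand: caggatccgtCTTTTCggctttcggctcgg
Rps2, chr17:24720057-24720086, plus strand: agatctcgcgCTTCTTggagcactataaat
Rps18, chr17:33955646-33955675, minus strand: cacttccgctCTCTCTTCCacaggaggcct
Rps6, chr4:86857348-86857377, minus strand: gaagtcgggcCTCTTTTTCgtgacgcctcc
Rps27, chr3:90213629-90213658, minus strand: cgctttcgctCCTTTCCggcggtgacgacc
Rplp2, chr7:141447641-141447670, plus strand: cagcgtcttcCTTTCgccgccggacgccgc
Rpl38, chr11:114668570-114668599, plus strand: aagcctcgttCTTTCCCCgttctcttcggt
Rpl35a, chr16:33056472-33056501, plus strand: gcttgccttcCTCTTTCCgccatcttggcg
Rpl7a, chr2:26910796-26910825, plus strand: cctcttctttCTTTCTCCagcagccgagca
Rpl31, chr1:39367838-39367867, plus strand: tcctcctcgcCTCCCCgtgacccggaagtt

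Classes were built by clustering without the ribosomal protein genes and named from marker genes. The path from progenitor to neuron held retinal progenitor-like cells (2354 control, 3470 mutant; led by Fgf15 and Sfrp2), neurogenic progenitor-like cells (830 and 1142; Atoh7, Neurog2), photoreceptor precursor-like cells (324 and 463; Crx, Thrb, Otx2), amacrine and horizontal cell-like cells (446 and 654; Ptf1a, Onecut2, Prdm13) and retinal ganglion cell (RGC)-like cells (415 and 522; Isl1, Nefl, Sncg). The leading genes of the RPE-like class (372 and 205 cells) included Ttr and the pigment genes Pmel, Tyrp1, Mlana and Tyr. Its marker score was 2.10 for RPE and 1.46 for melanocytes. At a finer clustering it divided into a deeper cluster of 54 control and 28 mutant cells that kept the RPE name, and its other 318 and 177 cells joined a cluster led by Trpm1, Pcp4 and the melanocyte marker Mlana, which stayed unnamed. That cluster scored 1.53 for RPE and 1.46 for melanocytes, and markers of another class outnumbered those of RPE among its leading genes. Of the 11 RPE markers, 9 had over 3 UMIs in the RPE-like class in control and 8 in mutant. Their summed levels were 14213 and 14096 CPM, against 63.6 and 67.6 CPM in progenitor-like cells. Above their progenitor-like level were 9 markers in control and 7 in mutant, and Rrh was below it in mutant. Pmel and Dct, also leading genes of the melanocyte-like class, held most of both sums, so the sums do not separate RPE from melanocytes. Rpe65, the retinoid isomerase of mature RPE, and Sfrp5 were at 0 UMIs in both libraries, and Rgr was at 17 UMIs in control and 0 in mutant. All markers of the other path classes had over 3 UMIs in their class except Rcvrn, a gene of mature photoreceptors, at 0 UMIs in photoreceptor precursor-like cells. In all, 14 classes were named, and 3725 control and 3674 mutant cells stayed unnamed.

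Along the path, ribosomal protein genes took the largest share of UMIs in progenitor-like cells and a smaller one in each neuronal class. In retinal progenitor-like cells they made up 20.6% of UMIs in the control library and 21.8% in the mutant library. Neurogenic progenitor-like cells stood at 17.3% and 18.1%, photoreceptor precursor-like cells at 15.8% and 16.5%, and amacrine and horizontal cell-like cells at 13.98% and 14.9%. RGC-like cells were the lowest of the 5 path classes, at 11.7% (interval 11.70 to 11.75) in control and 12.4% (12.41 to 12.45) in mutant, which is 0.570 times the progenitor share in each library. The order of the 5 path classes was the same in both libraries, and each step between neighbours was larger than the counting intervals. The spread between cells was wider: the quartiles over control progenitor-like cells were 18.6% and 22.8%, against 10.2% and 13.6% in control RGC-like cells. At a finer clustering, clusters of neighbouring classes overlapped and the order did not hold throughout. A neurogenic progenitor-like cluster led by Neurog2 and Gadd45g stood at 21.5% and 22.4%, above the whole progenitor-like class. A photoreceptor precursor-like cluster led by Neurod4 (17.5% and 18.6%) stood above a neurogenic one led by Neurog2 and Olig2 (16.2% and 17.2%).

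**Figure D1:**
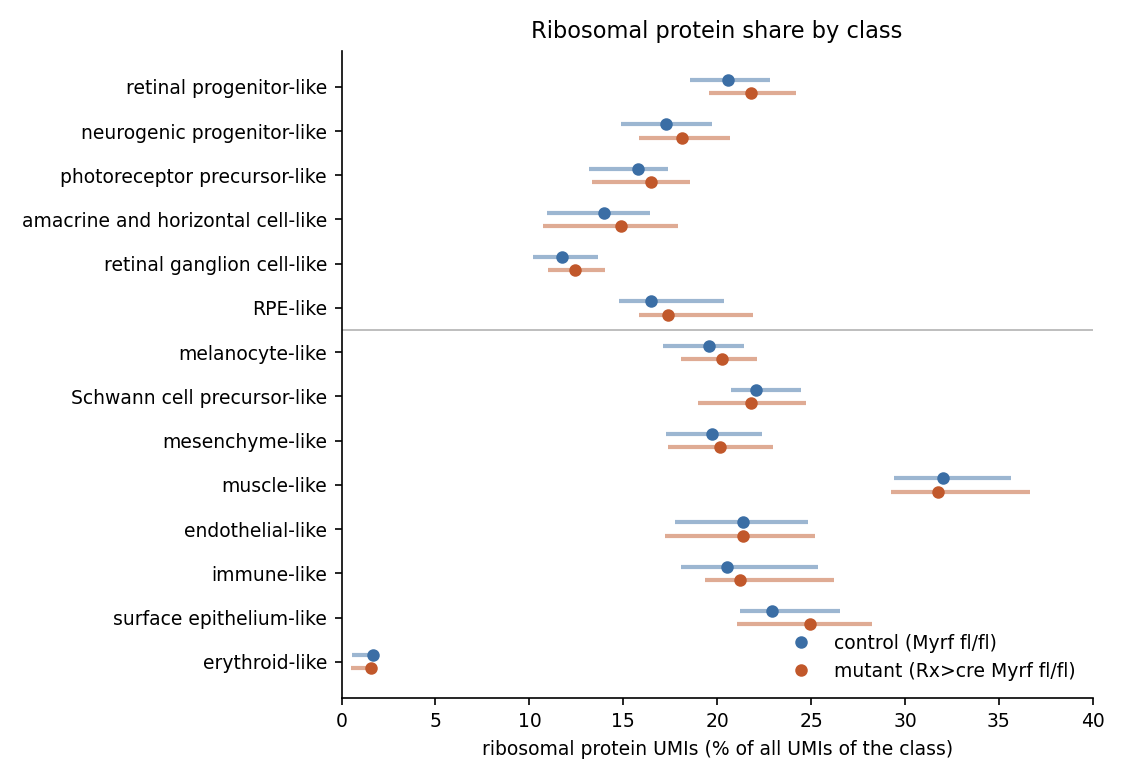
Ribosomal protein UMIs as a percentage of all UMIs (x axis) in each named class, with control cells in blue and mutant cells in orange; points are shares of summed UMIs and bars run from the first to the third quartile over cells. The path classes step down from 20.6% and 21.8% in retinal progenitor-like cells to 11.7% and 12.4% in retinal ganglion cell-like cells, while muscle-like cells stand highest.

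Shares also varied inside the classes. Of the 2 neurogenic clusters, the one led by Atoh7 and Gal stood at 19.1% in control and 19.8% in mutant, and the one led by Neurog2, Atoh7 and Olig2 at 15.8% and 16.9%. RGC-like cells also formed a pair of clusters. The first, led by the RGC transcription factor Isl1, stood at 12.7% and 13.2%, and the second, led by the cytoskeletal and axonal genes Sncg, Nefl and Gap43, at 10.3% and 11.2%. Among retinal progenitor-like clusters, the one with Fgf15 and the replication gene Ung was highest, at 22.2% and 23.6%. The mitotic cluster led by Cenpf and Ube2c was lowest, at 19.1% and 20.1%. When amacrine-like and horizontal-like cells were separated at a finer resolution, horizontal-like cells were the lower of the pair (9.48% in control and 10.4% in mutant, against 15.3% and 16.6%), and stood below RGC-like cells as well.

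Ribosomal protein UMIs per cell differed less between RGC-like and progenitor-like cells than other UMIs did. The median RGC-like cell held 2027 ribosomal protein UMIs in control and 2160.5 in mutant, and the median progenitor-like cell 2135 and 2138. All other UMIs together had a median of 14538 in control RGC-like cells and 14613 in mutant ones, against 8076.5 and 7405 in progenitor-like cells. Photoreceptor precursor-like cells differed from that pattern. They held 1093 and 1054 ribosomal protein UMIs and fewer other UMIs than progenitors (5841.5 and 5611). Amacrine and horizontal cell-like cells were similar to them, with 1026 and 1066 ribosomal protein UMIs. UMIs per cell depend on capture as well as on RNA content, and the part of capture was not tested.

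**Figure D2:**
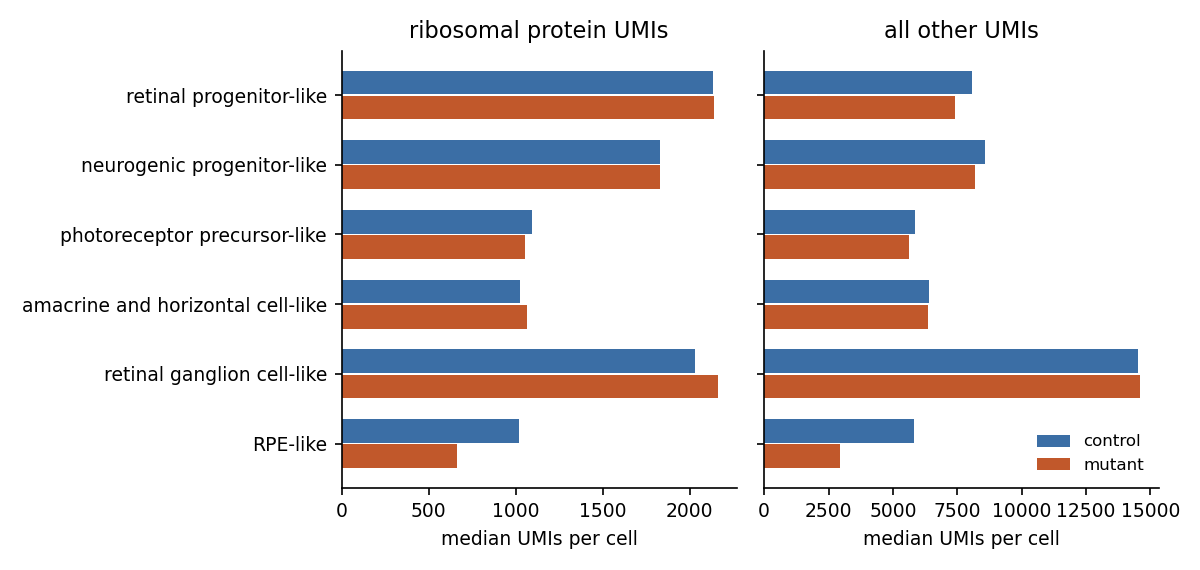
Median UMIs per cell (x axis) from ribosomal protein genes (left) and from all other genes (right) in the path classes and RPE-like cells, control in blue and mutant in orange. Retinal ganglion cell-like cells are near progenitor-like cells in ribosomal protein UMIs (2027 and 2160.5 against 2135 and 2138) and exceed them in other UMIs.

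Every member was lower in RGC-like than in progenitor-like cells, in both libraries, as CPM of all UMIs. A member was counted as lower when it was at least 1.5-fold lower in each library, which held for 56 of 76 members and for 26.9% of the 6300 genes compared, those with a mean of at least 20 CPM over the classes. No member was 1.5-fold higher, against 21.8% of all genes. The median member stood at -0.79 on the log2 scale in control and -0.78 in mutant, and the median of all genes at -0.11. The members' mean log2 ratios over the libraries ran from -1.33 to -0.26.

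Rpl12, which forms the base of the ribosomal stalk, was lowest. It went from 2388 CPM in control progenitor-like cells to 926 CPM in RGC-like cells, and from 2218 to 901 CPM in mutant (log2 ratios of -1.37 and -1.30). Rps2 (chr17:24718116-24721929), a small subunit protein near the mRNA entry channel, went from 4172 to 1794 CPM in control and from 3574 to 1588 CPM in mutant. Its log2 ratios were -1.22 and -1.17, so both members were more than 2-fold lower in each library. Next came Rps18, at -1.20 and -1.16, and Rplp0, the core of the stalk that recruits translation factors, at -1.17 and -1.15. Rpl36a was at -1.11 and -1.17.

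The other stalk proteins followed Rplp0. Rplp1 was at -1.08 in control and -1.01 in mutant, and Rplp2 at -0.83 and -0.83. Rpsa, a small subunit protein also known as the laminin receptor, was at -1.13 and -1.10. Rps19 and Rps20, in which mutations darken the skin of mice, stood at -1.01 and -1.03 and at -1.10 and -1.10. Rps7 was above the family median, at -0.56 and -0.60. Rpl5 and Rpl11, which with 5S rRNA bind Mdm2 and restrain its action on p53, were at -0.86 and -0.88 and at -0.66 and -0.63. Rps6, whose protein is phosphorylated by S6 kinases downstream of mTOR, was at -0.67 and -0.70.

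At the other end were members near their progenitor level. Rpl27 was at 690 CPM in control progenitor-like cells and 574 CPM in RGC-like cells, and at 946 and 798 CPM in mutant, a log2 ratio of -0.26 and -0.25. Rpl10, an X-linked gene for a protein that joins the large subunit late, was at -0.36 and -0.35. Rpl23a was at -0.41 and -0.35, Rpl7a at -0.46 and -0.41, and Rpl31 at -0.53 and -0.43. Of these 5 highest members, Rpl7a and Rpl31 are among those printed above with a tract, as Rpl12, Rps2 and Rps18 are of the lowest 5. Rplp0, Rpl36a, Rpl10 and Rpl27 had no tract of these letters within 5 bases of their annotated start.

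The remaining members chosen for their roles lay between. Rpl22, which has a paralog in Rpl22l1, was at -0.86 and -0.87. Rps4x, the X-linked form of Rps4, was at -1.02 and -1.05. Rps27 was at -0.98 and -1.01 and Rps27a, made as a fusion with ubiquitin, at -0.88 and -0.87. Rpl38 and Rpl24, which carry the mouse Tail-short and Belly spot and tail mutations, were at -0.54 and -0.54 and at -0.62 and -0.60. Rpl39 and Rpl41, which encode very small proteins, were at -0.83 and -0.81 and at -0.66 and -0.63. Many members have near-identical processed copies in the genome, so their absolute levels, Rpl13a at 297 CPM in control progenitor-like cells among them, are uncertain.

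The balance of the subunits moved little. Large subunit members held 54.4% of the family's UMIs in control progenitor-like cells and 56.2% in RGC-like cells, and 54.2% and 56.2% in mutant.

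**Figure D3:**
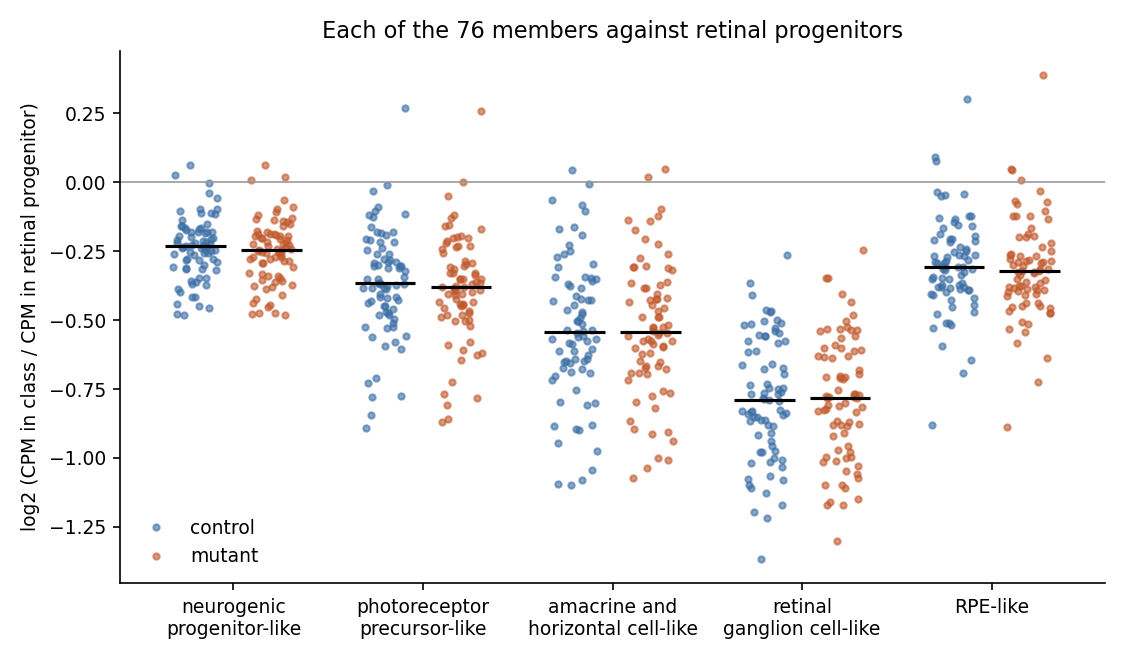
Log2 ratio of each member's CPM in a class to its CPM in retinal progenitor-like cells (y axis), for the 76 members in control (blue) and mutant (orange), with black bars at the medians. All points of retinal ganglion cell-like cells lie below 0, with medians of -0.79 and -0.78, and Rpl41 is the highest point of RPE-like cells in both libraries.

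Neurogenic progenitor-like cells and the other neuronal classes showed smaller differences, with medians below 0 as well. In neurogenic progenitor-like cells 73 of 76 members had a mean log2 ratio below 0 (median -0.24), none was 1.5-fold lower (10.0% of all genes) and none higher (7.18%). In photoreceptor precursor-like cells 75 members were below 0, 8 were 1.5-fold lower (18.4% of all genes) and none higher (17.4%), a share of members below the background. In amacrine and horizontal cell-like cells 74 were below 0, 28 were 1.5-fold lower (19.6% of all genes) and none higher (21.9%). Rpl12 was the lowest member in both of the latter classes, at -0.89 and -0.87 in photoreceptor precursor-like cells and at -1.09 and -1.07 in amacrine and horizontal cell-like cells. Rpl13a alone had a ratio above 0 in photoreceptor precursor-like cells of both libraries (0.27 in control, 0.26 in mutant), from 297 to 358 CPM in control and from 265 to 316 CPM in mutant.

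RPE-like cells held a share between those of progenitor-like and RGC-like cells. Ribosomal protein genes made up 16.5% of UMIs in control (interval 16.45 to 16.52) and 17.4% in mutant (17.35 to 17.46), or 0.801 and 0.799 times the progenitor share (log2 ratios of -0.32 and -0.32). In the 54 and 28 cells that kept the RPE name at the finer clustering the share was 13.4% and 15.4% and the ratio -0.62 and -0.50. Among cells of at most 2000 UMIs, the upper limit stated in the study's methods, the ratio was 0.52 and 0.54, above 0. The median member was at -0.31 in control and -0.32 in mutant, and the median of all genes at -0.22. At 1.5-fold, 3 members were lower (26.2% of the 6325 genes compared) and none higher (16.8%), so members past the fold were rarer than among all genes. In the 54 and 28 cells that kept the RPE name at the finer clustering, 25 members were lower (27.2% of all genes) and none higher (20.1%). Among cells of at most 2000 UMIs none was lower (25.4%) and 21 were higher (8.71%).

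Rpsa was the lowest member in RPE-like cells, going from 4318 to 2345 CPM in control and from 4032 to 2178 CPM in mutant (-0.88 and -0.89). Rpl12, at -0.64 and -0.64, was also past the fold. Rpl22, at -0.53 and -0.53, was not. Rpl41 (chr10:128548114-128549305), the shortest member, was instead higher in RPE-like cells. It went from 2307 to 2842 CPM in control and from 3229 to 4227 CPM in mutant, ratios of 0.30 and 0.39. Rpl36 (0.09 and 0.05) and Rps28 (0.08 and 0.05) were also above 0 in both libraries, and Rplp1 (-0.05 and 0.01) and Rpl31 (-0.04 and -0.03) were near it. The other stalk members, Rplp0 and Rplp2, were at -0.48 and -0.45 and at -0.27 and -0.28.

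The values of RPE-like cells moved with depth. Cells of 500 to 2000 UMIs had a share of 19.0% in control and 20.4% in mutant, and cells of 10000 to 20000 UMIs 15.95% and 17.3%. Progenitor-like cells moved the other way below 5000 UMIs, from 13.3% and 13.99% at 500 to 2000 UMIs to 21.1% and 22.5% at 5000 to 10000. Among cells of 10000 to 20000 UMIs, RGC-like cells stood at 12.5% and 12.97%, RPE-like cells at 15.95% and 17.3% and progenitor-like cells at 20.6% and 21.7%. In that band mutant photoreceptor precursor-like cells (17.8%) were above mutant neurogenic progenitor-like cells (17.7%), unlike over all depths. At 2000 to 5000 UMIs the control cells of these classes were also reversed (14.5% against 12.3%), but the mutant ones were not (14.1% and 15.1%). Thinning to 2000 UMIs could use only cells of at least that depth, so its RPE-like values also reflect the loss of shallow cells. It gave 11.8% and 12.4% in RGC-like, 16.6% and 18.2% in RPE-like and 20.7% and 21.9% in progenitor-like cells. The 4 shallow unnamed clusters, with medians of 882.5 to 1491 UMIs, had shares of 20.9% to 26.6%, and haemoglobin UMIs, which retinal cells should lack, made up 1.99% to 4.29% of UMIs in them in control. The part of free RNA in shallow cells was not tested.

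**Figure D4:**
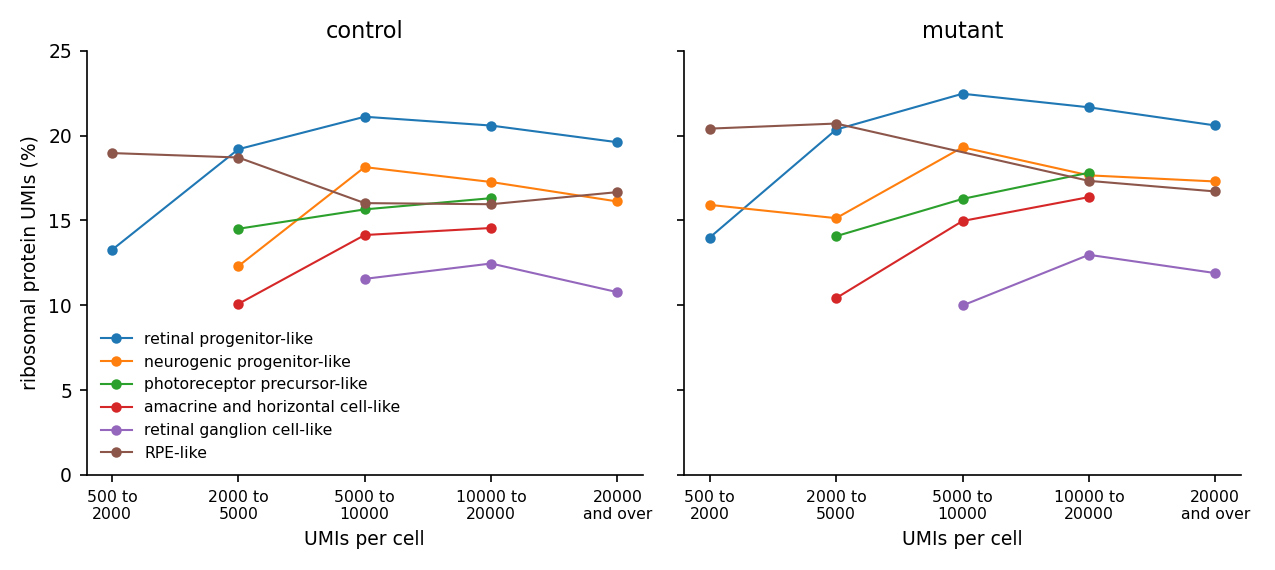
Ribosomal protein share of UMIs (y axis, percent) in bands of UMIs per cell (x axis) for the path classes and RPE-like cells, control on the left and mutant on the right; bands with under 20 cells are left out, and the mutant RPE line joins across the missing band of 5000 to 10000. In the band of 10000 to 20000 UMIs retinal ganglion cell-like cells are lowest (12.5% and 12.97%) and retinal progenitor-like cells highest (20.6% and 21.7%).

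Outside the retina the highest share was in muscle-like cells, led by Myog, Actc1 and Tnnt1, at 32.0% in control and 31.7% in mutant. Mesenchyme-like cells stood at 19.7% and 20.1% and surface epithelium-like cells at 22.9% and 24.9%. Erythroid-like cells were lowest, at 1.67% and 1.56%, where haemoglobin took 89.9% and 90.5% of UMIs. Of the UMIs that were neither haemoglobin nor mitochondrial, ribosomal protein genes held 17.4% in erythroid-like cells of both libraries.

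Between the libraries, the ribosomal protein share was slightly higher in mutant than in control cells of all 6 path and RPE-like classes. The log2 ratio of the shares was 0.08 in progenitor-like, 0.07 in neurogenic, 0.06 in photoreceptor precursor-like, 0.09 in amacrine and horizontal cell-like, 0.08 in RGC-like and 0.08 in RPE-like cells. Counting only members of at least 500 coding bases turned the difference to -0.07 in progenitor-like and -0.09 in RPE-like cells. The RPE value over all members moved to 0.20 in the cells named RPE at the finer clustering and 0.15 without cells over 20000 UMIs. It was 0.14 in Xist-positive cells without Y-linked UMIs. Thinning, which also left out cells under 2000 UMIs (247 control and 124 mutant cells kept), gave 0.14. The median depth of RPE-like cells differed between the libraries (6906 and 3610 UMIs). In RPE-like cells of at least 20000 UMIs the shares were 16.67% in control and 16.71% in mutant. The direction turned in RGC-like cells of 5000 to 10000 UMIs (11.6% in control, 9.99% in mutant). It also turned in photoreceptor precursor-like cells of 2000 to 5000 UMIs (14.5% and 14.1%). Of the 14 named classes, 11 were higher in mutant. Classes that derive from mesoderm, neural crest or surface ectoderm ranged from -0.09 in erythroid-like to 0.12 in surface epithelium-like cells.

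The members differed from each other far more than the family did. In progenitor-like cells Rps28 went from 858 CPM in control to 1273 CPM in mutant (log2 ratio 0.57, interval 0.55 to 0.59) and Rpl41 from 2307 to 3229 CPM (0.49, 0.47 to 0.50). Rps2 went the other way, from 4172 to 3574 CPM (-0.22, -0.24 to -0.21). Rpl27 (0.46), Rpl35a (0.43) and Rpl36 (0.41) completed the highest 5, and Rpl10 (-0.17), Rpl13a (-0.16), Rpl3 (-0.15) and Rpl5 (-0.14) the lowest 5. In RPE-like cells the highest were Rpl41 (0.57), Rps28 (0.54), Rps21 (0.38), Rpl27 (0.37) and Rpl35a (0.37), and the lowest Rpl3 (-0.19), Rps2 (-0.16), Rpl7 (-0.16), Rpl14 (-0.15) and Rps7 (-0.15).

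A member was counted where its log2 ratio was at least 0.32 in size, and the members counted were all higher in mutant. In progenitor-like cells 14 members were higher in mutant (2.00% of all genes) and none lower (0.516%). The counts of higher members were 8 in neurogenic progenitor-like cells (2.62% of all genes), 9 in photoreceptor precursor-like cells (4.45%), 12 in amacrine and horizontal cell-like cells (4.88%), 12 in RGC-like cells (2.53%) and 11 in RPE-like cells (7.23%). The last count was 25 in the cells that kept the RPE name at the finer clustering (17.9% of all genes) and 17 among RPE-like cells of 10000 to 20000 UMIs (15.04%). No member passed that limit downward in these classes, where 1.96%, 8.43%, 4.88%, 2.06% and 13.5% of all genes were.

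Each member's ratio was similar in the path and RPE-like classes. Over the 6 path and RPE-like classes, 44 members were above 0 in all and 28 below 0 in all, leaving 4 of mixed sign. The range of a member's log2 ratio over these classes had a median of 0.07 and was at most 0.15, while the members of progenitor-like cells ran from -0.22 to 0.57. Rps28 stood between 0.52 and 0.57 in the 6 classes, at 0.53 in mesenchyme-like and at 0.47 in muscle-like cells. Rpl41 was at 0.51 in mesenchyme-like and 0.47 in muscle-like cells. Rps2 was at -0.15 in mesenchyme-like and -0.36 in muscle-like cells. Over all 14 named classes 24 members were above 0 in every class, 26 were below 0 in every class and 26 were of mixed sign. The classes of a library share its preparation and sequencing, so they are no independent repeats.

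The ratios moved with the length of the coding sequence, taken from GENCODE M21 for all 76 members (75 to 1257 bases, without the stop codon). Spearman's rho over the members was -0.93 in progenitor-like and -0.93 in RPE-like cells, and between -0.93 and -0.82 in the 14 classes. This is a description over 76 genes of the same libraries, which are not replicates. The 25 members under 400 coding bases together went from 5.41% of UMIs in control progenitor-like cells to 6.62% in mutant (log2 ratio 0.29). The 38 members of 400 to 700 bases went from 11.45% to 11.7% (0.03). The 13 members of at least 700 bases went from 3.72% to 3.45% (-0.11). In RPE-like cells the same sets stood at 0.30, 0.01 and -0.12, and in mesenchyme-like cells at 0.25, -0.04 and -0.16. As summed shares, the short set was above 0 in all 14 classes (0.11 to 0.36), and the long set was above 0 in none (-0.30 to -0.10). By member, 19 of the 25 short ones were above 0 in all 14 classes, and 12 of the 13 long ones were below 0 in all 6 path and RPE-like classes. Rpl7a, the other long member, was at 0.03 in RGC-like cells.

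**Figure D5:**
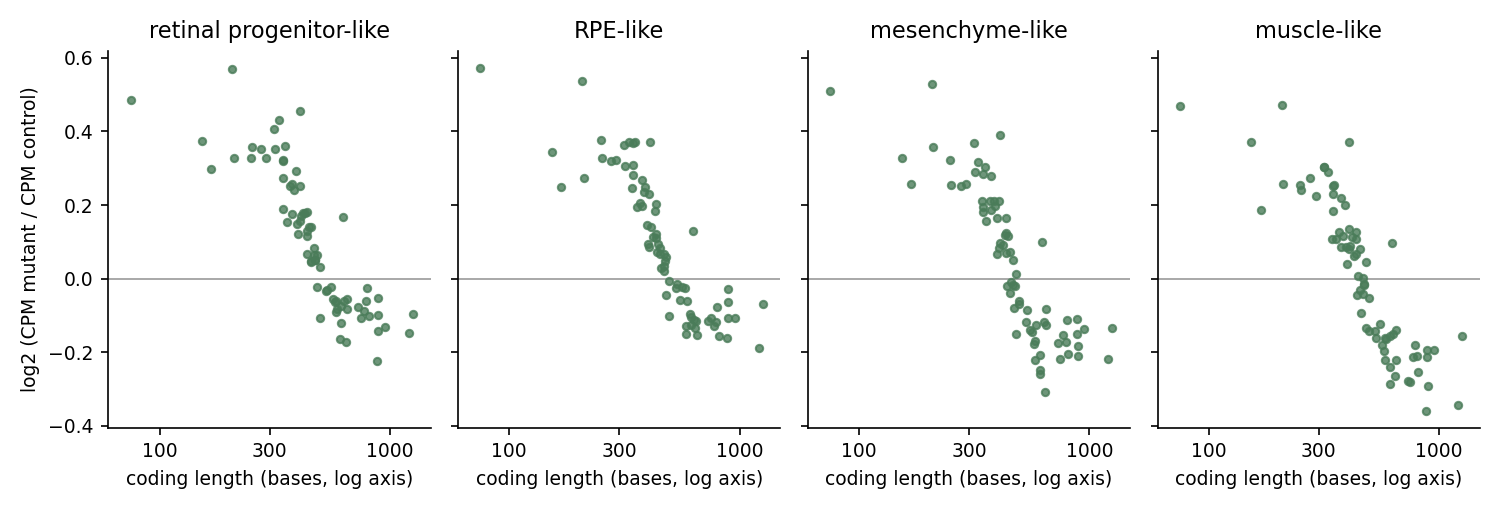
Log2 ratio of mutant to control CPM (y axis) against coding length in bases (x axis, log scale) for the 76 members in 4 classes, 1 point per member. Short members such as Rpl41 and Rps28 lie above 0 in each class, and the 13 members of at least 700 bases, as a summed share, lie below it (-0.11 in progenitor-like, -0.12 in RPE-like, -0.16 in mesenchyme-like and -0.25 in muscle-like cells).

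Other genes of the same libraries shifted in the same direction, by an amount that varied between classes. Among autosomal genes with a mean of at least 100 CPM in progenitor-like cells, the 111 other genes under 300 coding bases had a median log2 ratio of 0.10 and the 393 genes of 1000 to 2000 bases -0.04. Autosomal members under 300 bases (8 genes) had a median of 0.34. In mesenchyme-like cells the other genes under 300 bases were at 0.16 and the members at 0.29, and other genes of 1000 to 2000 bases at -0.06. In RPE-like cells the other genes under 300 bases were at 0.18 and the members at 0.33, and in muscle-like cells at 0.23 and 0.26. The difference between the sets was wide in RGC-like cells, at 0.08 and 0.33. In muscle-like cells the other genes of at least 2000 bases were also above 0, with a median of 0.02. X-linked members lay at both ends, Rpl39 at 0.37 and Rpl36a at 0.35 but Rpl10 at -0.17 and Rps4x at -0.06 in progenitor-like cells, with 153, 318, 642 and 789 coding bases. Whether the shift with length belongs to genotype, pool or library preparation cannot be told apart with 1 library per genotype. Between classes, the members' log2 ratio of RGC-like to progenitor-like cells, averaged over the libraries, had a rho of 0.002 with coding length. The ratio of RPE-like to progenitor-like cells, averaged in the same way, had a rho of -0.37, of the same sign as the difference between the libraries. Members under 400 bases stood at -0.23 in control and -0.22 in mutant RPE-like cells, those of 400 to 700 bases at -0.35 and -0.37, and those of at least 700 bases at -0.37 and -0.37.

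Genes that act with the ribosome were compared over the same classes, where 26.9% of all genes were 1.5-fold lower in RGC-like cells and 26.2% in RPE-like cells. Of 4 ribosome components outside the symbol rule, 2 were 1.5-fold lower in RGC-like than in progenitor-like cells in both libraries, Rps3a1 (-0.78 and -0.79) and Rack1 (-0.68 and -0.73). Fau, at -0.50 and -0.55, was not. Of 5 paralogs that passed the level filter 4 were lower, among them Rpl22l1, which went from 911 to 358 CPM in control (-1.35) and stood at -1.21 in mutant. Rpl22l1 was not lower in RPE-like cells (0.33 and 0.18), where Rpl22 was at -0.53 and -0.53. Rps27rt, a near-identical copy of Rps27, was at 1.16 in mutant against control progenitor-like cells, and reads shared between such copies make it uncertain.

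Translation factors were mixed. Of 34, 6 were 1.5-fold lower in RGC-like cells and none higher, with a median log2 ratio of -0.30, beside 26.9% of all genes lower and 21.8% higher. The elongation factor subunit Eef1d was lowest (-2.41 and -2.25), followed by the poly(A)-binding gene Pabpc1 (-1.31 and -1.26) and Naca (-0.89 and -0.89), a subunit of the nascent chain complex. The initiation genes Eif4a1 (0.58 and 0.57), Eif4g2 (0.49 and 0.56) and Eif4a2 (0.51 and 0.41) were highest, none past the fold in both libraries. In RPE-like cells 5 were lower (26.2% of all genes), led by Eif3b (-0.80 and -1.09), and 1 was higher (16.8%), Eif4a2 (0.89 and 0.85).

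Of 33 ribosome biogenesis genes that passed the filter, 19 were 1.5-fold lower and 1 higher in RGC-like cells (median -0.68), where 26.9% of all genes were lower. In RPE-like cells 17 were lower and none higher (median -0.67), where 26.2% of all genes were lower. Gar1 and Dkc1, of the particle that modifies rRNA, were at -2.15 and -2.07 and at -1.77 and -1.70 in RGC-like cells, and Tcof1, a nucleolar factor of rRNA transcription, at -1.99 and -1.59. The gene of the polymerase I factor Rrn3 was the 1 that was higher (1.573 and 1.502). In RPE-like cells Gar1 was at -1.59 and -1.94 and the RNA helicase gene Ddx21 at -1.54 and -1.23. The biogenesis list thus had a similar median in RPE-like and RGC-like cells, while the ribosomal protein members had medians of -0.31 and -0.79.

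Growth regulators went both ways in RGC-like cells, where 2 of 11 were lower and 2 higher. For this list and those that follow, the shares of all genes are again 26.9% lower and 21.8% higher in RGC-like cells, and 26.2% and 16.8% in RPE-like cells. Eif4ebp1, the translational repressor controlled by mTOR, was at -2.72 and -2.78, and Mycl at -0.86 and -0.73. Mxd4, an antagonist of Myc, was at 2.60 and 2.56, and Mycn at 1.09 and 1.04. In RPE-like cells 4 of 11 were lower and 2 higher. There Mycn was at -1.55 and -1.55, Mycl at -1.84 and -2.04 and Mxd4 at 2.83 and 2.12. Mitochondrial ribosomal protein genes, a separate set of 78, had a median of -0.27 in RGC-like cells (12 of 74 lower, 2 higher) and 0.06 in RPE-like cells (2 of 76 lower, 7 higher). Of the immediate early genes that mark dissociation stress, 3 of 5 were higher in RGC-like cells and 4 of 4 lower in RPE-like cells, and their part in the ribosomal protein values was not tested.

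The same lists were compared between the libraries. In progenitor-like cells 0.516% of all genes were lower in mutant and 2.00% higher. In progenitor-like cells 1 of 34 translation factors was lower in mutant past the limit, 1 of 32 biogenesis genes (Nop10, at 0.48) and 3 of 76 mitochondrial ribosomal protein genes were higher, and none of the 9 growth regulators or 4 stress genes passed it. Among paralogs Rps27rt and Rpl36al (0.49) were higher. In RPE-like cells 4 of 34 translation factors, 7 of 30 biogenesis genes and 3 of 10 growth regulators were lower in mutant, where 13.5% of all genes were lower and 7.23% higher. There 2 biogenesis genes and 3 of 5 paralogs were higher, 2 of 76 mitochondrial ribosomal protein genes were lower and 6 higher, and 1 of 3 stress genes was lower.

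The genes whose CPM followed the ribosomal protein share most closely over the 14 named classes of the control library included Rps3a1 (Pearson's r of 0.997, and 0.996 in mutant), Rack1 (0.988 and 0.989), Rpl7l1 (0.984 and 0.990), Gm11808 (0.984 and 0.987), Eif3i (0.981 and 0.974), Naca (0.980 and 0.980), Eef1b2 (0.979 and 0.978), Rps27rt (0.979 and 0.985) and Eif4b (0.978 and 0.976). Erythroid-like cells, far below all other classes, carry much of these values. Over the 13 other classes, a set chosen after the values were seen, Rps3a1 was highest (0.979 and 0.960). Impdh2, the limiting enzyme of guanine nucleotide synthesis, was at 0.925 and 0.895. The classes share a library and its depth, and the correlations describe these 2 libraries only.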

How the data were processed

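The authors deposited UMI count matrices for 2 libraries, 1 per genotype, and the submitters' processing notes name Cell Ranger 7.1.0, Seurat 4.1.1 and mm10. The values are raw counts of UMIs per gene and barcode, per the file headers, which give software version 3.1.0. Barcodes with at least 200 genes and at most 15% mitochondrial UMIs were kept, and 366 control and 395 mutant barcodes with a Scrublet score of at least 0.2 were removed; the score was chosen after seeing the data, since the automatic threshold gave 366 and 0. Cells of both libraries were clustered with scanpy 1.11.5 (1890 variable genes without ribosomal protein or marker genes, 30 components, 15 neighbours, Leiden resolution 1.0) into 30 clusters, 8 of them unnamed. Limits for naming were set after the clusters were seen. Shares and CPM were computed over the UMIs of all genes, summed per class and library. Genes with a mean of at least 20 CPM were compared. Intervals are exact binomial at 95%, and a count of 0 was read as 3 counts. The calculation of ratios was tested on simulated data. Named were the 5 highest and 5 lowest members per main comparison, members with known roles, the 10 genes most like the share, and, in each other list, genes from among the 3 largest changes each way, beside those compared with a member. Some genes that these rules name are not reported here. The members and lists were chosen with earlier results of these data known. Alternatives covered the UMI and mitochondrial limits, denominator, thinning, cell weighting, sex, clustering, doublets, filter and fold. No columns of the authors' own comparisons were used.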

Additional observations from a re-analysis of the deposited data

Results flagged for a closer look

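The ribosomal protein share was higher in mutant retinal progenitor-like cells but lower in mutant cells of 3 other classes, a difference between classes that was not tested. The log2 ratio of mutant to control was -0.020 in Schwann cell precursor-like cells, -0.012 in muscle-like cells and -0.093 in erythroid-like cells. In each of these classes the members under 400 coding bases were still higher in mutant (0.19, 0.21 and 0.11) and those of at least 700 bases lower (-0.20, -0.25 and -0.30). A signal outside the measurements compared was that of Y-linked genes, found in 55.9% of mutant and 0.04% of control retinal progenitor-like cells.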

How the results depend on the processing

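The 6 family ratios are listed here in 1 order, on the log2 scale: RGC-like against progenitor-like cells in control and mutant, RPE-like against progenitor-like cells in control and mutant, and mutant against control in progenitor-like and RPE-like cells. As reported they were -0.81, -0.81, -0.32, -0.32, 0.082 and 0.078. Of 66 alternative values 61 kept their direction. A mitochondrial limit of 5% gave -0.79, -0.79, -0.20, -0.20, 0.086 and 0.085. Leaving out cells over 20000 UMIs gave -0.75, -0.78, -0.34, -0.28, 0.082 and 0.15. Leaving out cells over 2000 UMIs, the limit stated in the study's methods, which 79.1% of control and 80.6% of mutant barcodes exceed, turned the direction for RPE-like cells in both libraries and for RGC-like cells in control: it left 5 and 3 RGC-like and 36 and 58 progenitor-like cells and gave 0.10, -0.45, 0.52, 0.54, 0.077 and 0.11. With that limit Rpl12 turned above 0 in RPE-like cells of both libraries (0.43 and 0.32). A denominator without mitochondrial and haemoglobin UMIs gave -0.79, -0.78, -0.26, -0.25, 0.077 and 0.090. Thinning to 2000 UMIs also left out cells under that depth and kept 247 and 124 RPE-like cells. It gave -0.81, -0.82, -0.32, -0.27, 0.086 and 0.14. The mean of shares per cell gave -0.80, -0.81, -0.24, -0.21, 0.084 and 0.11. Keeping only Xist-positive cells without Y-linked UMIs gave -0.81, -0.83, -0.35, -0.29, 0.075 and 0.14. Leiden resolution 2.0, which left 54 and 28 deep RPE-like cells, gave -0.81, -0.81, -0.62, -0.50, 0.082 and 0.20. Keeping doublets, which moved a shallow cluster into the RGC-like class, gave -0.70, -0.68, -0.32, -0.32, 0.079 and 0.082. Among choices made after seeing the data, cells of 10000 to 20000 UMIs gave -0.72, -0.74, -0.37, -0.32, 0.073 and 0.12, and members of at least 500 coding bases gave -0.81, -0.80, -0.37, -0.38, -0.073 and -0.087. Except where cells or members left out show it, the cause was not tested. Of 2030 alternative values of the members named, 947 moved beyond their counting interval and 138 took the other sign, 71 of these with cells over 2000 UMIs left out. Of the 138, 2 belonged to values past the fold, both of Rpl12. Counts of members past a fold stayed within 1.5 times with other level filters and another denominator. With the smaller folds 33 were lower in RPE-like cells (39.0% of all genes), 34 higher (7.96%) and 5 lower (11.4%) in mutant progenitor-like cells, and 29 higher (19.6%) and 5 lower (36.7%) in mutant RPE-like cells. With other choices of cells, made after seeing the data for these counts, Leiden resolution 2.0 gave 25 lower in RPE-like cells (27.2%) and 25 higher in mutant RPE-like cells (17.9%). Leaving out cells over 2000 UMIs gave 0 lower (25.4%) and 21 higher (8.71%) in RPE-like cells and 5 lower in mutant progenitor-like cells (49.1%), and left too few RGC-like cells for a count. Cells of 10000 to 20000 UMIs gave 17 higher (15.04%) and 1 lower (19.6%) in mutant RPE-like cells. No paired analysis was possible because there was 1 library per genotype.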
